A study of Homo sapiens with 14 samples.

Results

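BNIP3, BNIP3L, FUNDC1, FKBP8, PINK1, ULK1, MAP1LC3B, GABARAPL1 and SQSTM1 are 9 genes of mitophagy, from a list of 10 that was taken by symbol from the 23106 genes counted in each library. Polyadenylated RNA was sequenced from PC3 cells, an established line of prostate cancer, and from HCT116 cells, an established line of colorectal cancer. The labels name no genetic change in either line, and both were kept for 16 h either in normoxia (21% O2) or in hypoxia (0.5% O2). PC3 had 4 biological replicates per condition and HCT116 had 3, so 14 libraries were compared. PC3 was grown in DMEM/Ham's F12 and HCT116 in McCoy's 5a medium, so that line and medium cannot be told apart, and each line stands for one tumour only.

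Mitophagy is the removal of mitochondria by autophagy. In the receptor-mediated route, proteins of the outer mitochondrial membrane bind the ATG8 proteins of the growing autophagosome directly. These receptors include BNIP3 and its close relative BNIP3L (also called NIX), whose genes are known targets of the hypoxia-inducible factor HIF, and FUNDC1 and FKBP8. In the other route the kinase PINK1 gathers on damaged mitochondria and starts their marking with ubiquitin, after which adaptors such as SQSTM1 (p62) link the ubiquitin to ATG8 proteins. The kinase ULK1 starts the autophagosome in both, and MAP1LC3B and GABARAPL1 are ATG8 proteins. RNA levels of these genes are not a measurement of mitophagy itself.

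The PC3 libraries held 98021966 to 123935458 counts in normoxia and 71228454 to 96159803 in hypoxia, and the HCT116 libraries 133067391 to 150630928. Values are CPM, counts scaled to the library size after TMM over all 14 libraries, which takes most genes as unchanged. A limit of 3 counts, which a count of 0 allows, lay at 0.0201 to 0.0447 CPM and covers counting error only. CA9, NDRG1, VEGFA and EGLN3, known hypoxia-induced genes, were all higher in every hypoxic library than in every normoxic one of the same line. Of the prostate markers, KLK3 was at 0 in every PC3 library and FOLH1 reached at most 0.0194 CPM there, whereas HOXB13 had a mean of 81.0 CPM in normoxic PC3 cells. Of the 7 colon markers, CDX2 had a mean of 17.6 CPM in normoxic HCT116 cells and was at 0 in PC3, EPCAM was high in both lines, CDX1 was at 0 in both, and VIL1, CDH17, GPA33 and LGR5 had means of at most 0.107 CPM in HCT116. Of the 3 markers of other cells, PTPRC (blood) reached 0.795 CPM in PC3 and was at 0 in HCT116, PECAM1 (endothelium) reached 2.90 CPM in PC3 and 0.0373 CPM in HCT116, and COL1A1 (fibroblasts) lay at 5.97 to 12.4 CPM in all libraries. Both PC3 libraries of replicate 1 stood apart from the other PC3 libraries for several of the mitophagy genes, being the highest of their group for 7 of the 9 in normoxia and for 5 in hypoxia. Calls of these 9 genes that change without these libraries are therefore given both ways.

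The 250 bases before the start of BNIP3 and of FUNDC1 are shown because they belong to a receptor gene that rose in hypoxia in both lines and to one that did not pass the test in either. They are from RefSeq (GRCh38.p14), at chr10:131981924-131982173 for BNIP3 and chrX:44542860-44543109 for FUNDC1, both read on the minus strand from 5′ to 3′. Capitals mark every match, on either strand, to ACGTG or GCGTG, the core letters that HIF is known to bind.
BNIP3: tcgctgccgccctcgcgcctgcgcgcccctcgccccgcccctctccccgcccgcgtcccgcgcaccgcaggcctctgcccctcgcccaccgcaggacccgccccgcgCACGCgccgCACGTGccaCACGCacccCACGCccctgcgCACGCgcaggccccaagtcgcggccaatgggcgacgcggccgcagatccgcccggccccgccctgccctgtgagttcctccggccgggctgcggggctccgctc
FUNDC1: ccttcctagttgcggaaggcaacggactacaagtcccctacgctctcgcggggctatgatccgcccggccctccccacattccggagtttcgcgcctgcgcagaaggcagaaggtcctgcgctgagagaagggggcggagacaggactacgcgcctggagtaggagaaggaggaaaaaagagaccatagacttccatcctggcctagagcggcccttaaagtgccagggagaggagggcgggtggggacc
The BNIP3 window held 2 matches to ACGTG, one on each strand and overlapping within 134 to 129 bases before the start, and 4 matches to GCGTG on the opposite strand between 143 and 100 bases before it. The FUNDC1 window held neither. The same window held 4 matches to GCGTG at MAP1LC3B and 1 at ULK1, and none to either at GABARAPL1 or SQSTM1. With all libraries and no replicate block, none of these 4 genes passed the hypoxia test in either line. Whether matches go with a change in hypoxia was not tested. Of 35116 windows of this length, 18.5% held ACGTG, 32.2% held GCGTG and 43.2% held at least one of them. Of the 9 genes, 6 had an entry, and BNIP3L, FKBP8 and PINK1 had none.

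The first comparison asked which of these genes changed in hypoxia in each line. BNIP3 and BNIP3L had the largest changes of the 9 genes and were higher in hypoxia in both lines. PINK1 was higher in both by a smaller amount. FKBP8 was higher in HCT116, while its call in PC3 depended on the model fitted. In PC3, 3 of the 9 passed the test (edgeR quasi-likelihood test, adjusted p under 0.05), all higher in hypoxia, against 11.3% of the 14309 genes tested in that line (6.03% higher and 5.29% lower). In HCT116, 4 of the 9 passed, again all higher, against 25.9% of 14120 genes (14.6% higher and 11.3% lower). The hypoxic and normoxic libraries did not overlap for 4 of the 9 in PC3, against 20.9% of all genes. In HCT116 they did not overlap for 5 of the 9, against 42.5% of all genes, so that such a separation was common there. The median log2 fold change of the 9 was 0.28 in PC3 and 0.21 in HCT116, beside 0.00 for all genes in each line. The replicate numbers pair the PC3 libraries, which the test above does not use. With the number as a block 6 of the 9 passed in PC3, with FKBP8, MAP1LC3B and SQSTM1 added, against 28.5% of all genes. Without both libraries of replicate 1, 5 passed, against 12.5% of all genes.

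**Figure D1:**
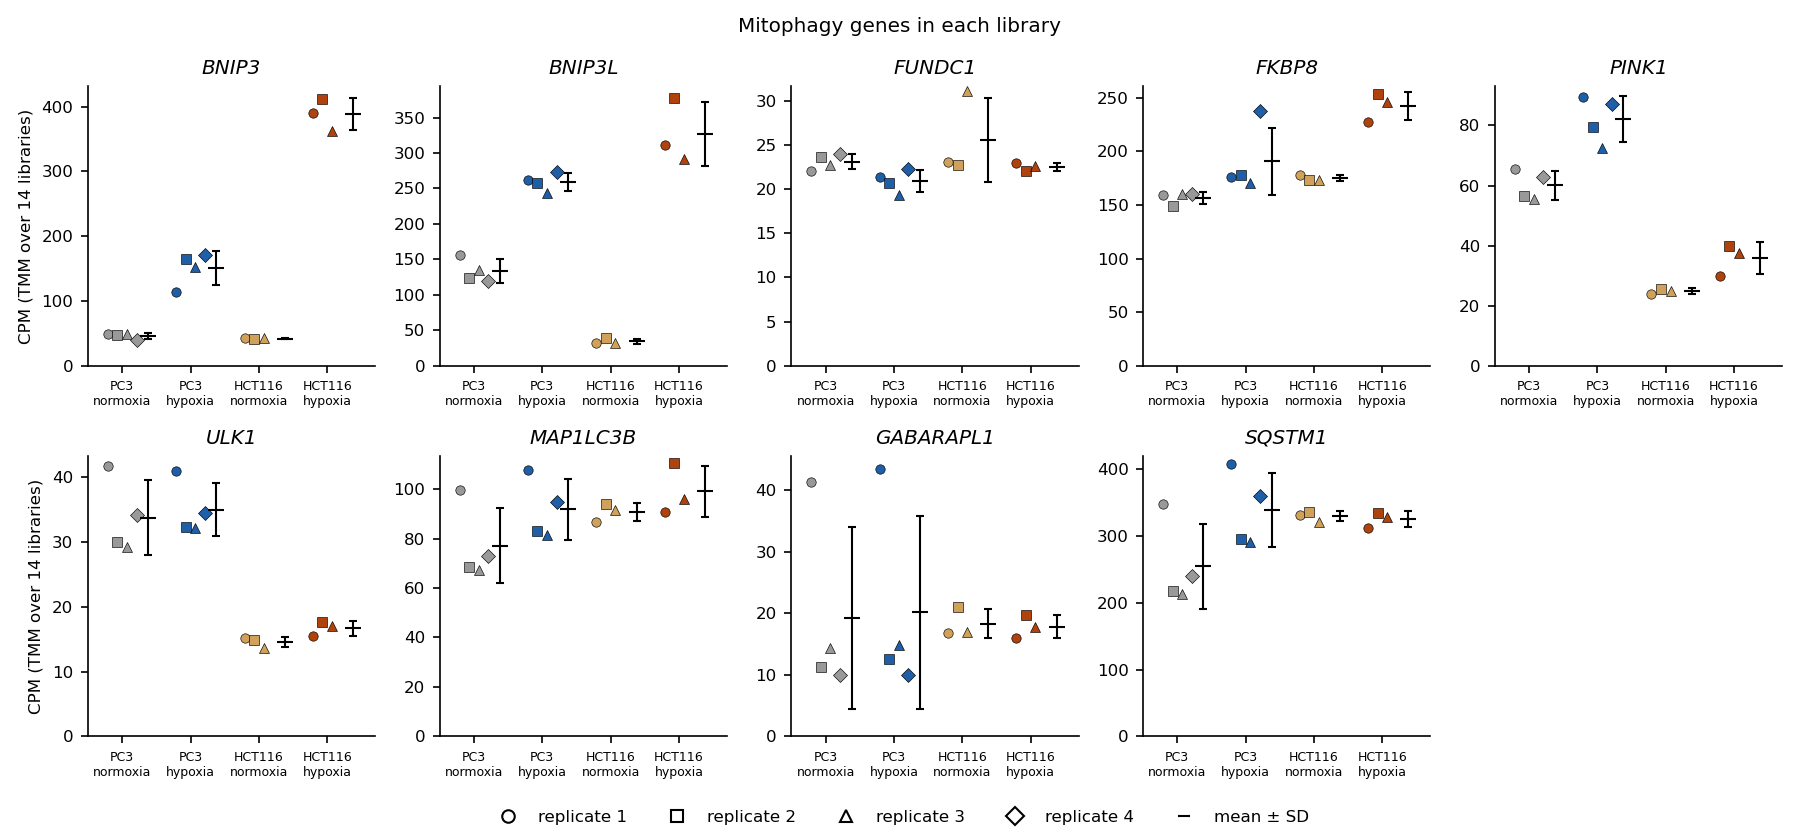
CPM of each of the 9 genes (vertical axis, linear from 0, with its own range in each panel) in the 14 libraries, by line and condition. Each marker is a library, its shape gives the replicate number and the bar beside each group its mean ± SD. BNIP3 and BNIP3L separate hypoxia from normoxia in both lines, PINK1 lies higher in PC3 than in HCT116, and replicate 1 of PC3 lies far above the other PC3 libraries for GABARAPL1 in both conditions.

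BNIP3 (chromosome 10, 133781188 to 133795471, minus strand, GRCh37) stood at 48.9, 47.6, 48.3 and 39.8 CPM in normoxic PC3 replicates 1 to 4 and at 113, 165, 153 and 171 CPM in the hypoxic ones. In HCT116 it stood at 42.3, 41.9 and 42.2 CPM in normoxia and at 391, 412 and 363 CPM in hypoxia. The conditions did not overlap in either line, and the lowest hypoxic PC3 library was that of replicate 1. BNIP3 rose 3.27-fold in PC3 (log2 fold change 1.71 ± 0.13 SE, adjusted p = 0.000134) and 9.33-fold in HCT116 (3.22 ± 0.07, adjusted p = 7.82e-10). Without both PC3 libraries of replicate 1 the log2 fold change in PC3 was 1.85.

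BNIP3L (chromosome 8, 26240570 to 26363152, plus strand) stood at 156, 123, 135 and 119.8 CPM in normoxic PC3 replicates 1 to 4 and at 261, 258, 243 and 273 CPM in hypoxia. In HCT116 the values were 31.8, 38.8 and 32.8 CPM in normoxia and 312, 377 and 292 CPM in hypoxia. Again no hypoxic library overlapped the normoxic ones of its line. The rise was 1.94-fold in PC3 (log2 fold change 0.96 ± 0.10, adjusted p = 0.000656) and 9.59-fold in HCT116 (3.26 ± 0.11, adjusted p = 1.24e-08). In PC3 the estimate of BNIP3L was below that of BNIP3 and in HCT116 the estimates lay side by side, but the difference between the genes within a line was not tested.

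FUNDC1 (chromosome X, 44382885 to 44402105, minus strand), a receptor known from work on hypoxic mitophagy, lay between 22.0 and 23.9 CPM in normoxic PC3 libraries and between 19.3 and 22.3 CPM in hypoxic ones. In HCT116 it lay at 23.0, 22.7 and 31.1 CPM in normoxia and between 22.0 and 23.0 CPM in hypoxia. The groups overlapped in both lines, and neither log2 fold change passed the test (-0.14 ± 0.07, adjusted p = 0.218 in PC3, and -0.17 ± 0.11, adjusted p = 0.292 in HCT116). With scaling by total counts alone the PC3 value was -0.25 and passed (adjusted p = 0.0334), while the median of all genes moved from 0.00 to -0.10.

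FKBP8 (chromosome 19, 18642561 to 18654887, minus strand), an immunophilin of the outer mitochondrial membrane, stood at 159, 149, 159.9 and 160.2 CPM in normoxic PC3 replicates 1 to 4 and at 176, 178, 171 and 238 CPM in hypoxia. In HCT116 it stood at 178, 173 and 174 CPM in normoxia and at 228, 254 and 246 CPM in hypoxia. The conditions did not overlap in either line, and hypoxic PC3 replicate 4 lay far above the other 3. FKBP8 rose 1.4-fold in HCT116 (log2 fold change 0.49 ± 0.06, adjusted p = 0.000323), and in PC3 its log2 fold change of 0.29 ± 0.11 did not pass (adjusted p = 0.118). With the replicate block the PC3 value was 0.27 and passed (adjusted p = 0.0484), as it did in 1 fit over all 14 libraries (0.28, adjusted p = 0.0475).

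PINK1 (chromosome 1, 20959951 to 20978004, plus strand), the kinase that opens the ubiquitin route, stood at 65.4, 56.6, 55.4 and 62.9 CPM in normoxic PC3 replicates 1 to 4 and at 89.5, 79.6, 72.5 and 87.1 CPM in hypoxia. In HCT116 the values were 23.9, 25.7 and 25.0 CPM in normoxia and 29.9, 40.0 and 37.6 CPM in hypoxia. Every hypoxic library was above every normoxic one of its line. PINK1 rose 1.37-fold in PC3 (log2 fold change 0.46 ± 0.09, adjusted p = 0.0143) and 1.46-fold in HCT116 (0.54 ± 0.09, adjusted p = 0.00212). The PC3 call was lost without normoxia replicate 2 (adjusted p = 0.0605) or normoxia replicate 3 (adjusted p = 0.0599), and with the replicate block its adjusted p was 0.001. The antisense RNA PINK1-AS overlaps the exons of PINK1 over 1545 bases, and since the use of strand in counting is not stated, its reads cannot be told apart from those of PINK1.

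ULK1 (chromosome 12, 132379167 to 132407695, plus strand) lay at 29.1 to 41.8 CPM in normoxic and 32.1 to 40.9 CPM in hypoxic PC3 libraries, with replicate 1 the highest in both. In HCT116 it lay at 15.1, 14.9 and 13.6 CPM in normoxia and at 15.4, 17.6 and 17.0 CPM in hypoxia, which did not overlap. Neither log2 fold change passed the test (0.06 ± 0.13, adjusted p = 0.822 in PC3, and 0.21 ± 0.08, adjusted p = 0.0596 in HCT116). Without HCT116 hypoxia replicate 1 the HCT116 value was 0.26 and passed (adjusted p = 0.0422), and under total-count scaling the PC3 value was -0.049.

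MAP1LC3B (chromosome 16, 87417559 to 87438385, plus strand), the ATG8 protein most used to mark autophagosomes, lay at 99.5, 68.4, 67.4 and 73.0 CPM in normoxic PC3 replicates 1 to 4 and at 108, 82.8, 81.6 and 94.6 CPM in hypoxia. Each hypoxic PC3 library was above the normoxic one of the same number, while the groups as a whole overlapped. Its log2 fold change was 0.26 ± 0.15 in PC3 (adjusted p = 0.3) and 0.14 ± 0.08 in HCT116 (adjusted p = 0.207), where the libraries ranged from 86.7 to 94.0 CPM in normoxia and from 90.8 to 111 CPM in hypoxia. In PC3 it passed with the replicate block (0.26, adjusted p = 0.014), without both libraries of replicate 1 (0.32, adjusted p = 0.0384) and without normoxia replicate 1 alone (0.41, adjusted p = 0.0476). The near-identical copy MAP1LC3B2 is counted apart, with counts that came to 2.39% to 5.72% of those of MAP1LC3B, and reads of the pair may be split between them.

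GABARAPL1 (chromosome 12, 10365057 to 10375727, plus strand) stood at 41.3 CPM in normoxic and 43.5 CPM in hypoxic PC3 replicate 1, and between 9.91 and 14.8 CPM in the other 6 PC3 libraries. In HCT116 it lay between 16.0 and 21.0 CPM in all 6 libraries. Neither line passed the test (log2 fold change 0.08 ± 0.57, adjusted p = 0.948 in PC3, and -0.03 ± 0.10, adjusted p = 0.882 in HCT116). In PC3 the sign turned under total-count scaling (-0.017) and without hypoxia replicate 1 (-0.64) or normoxia replicate 2 (-0.11), 3 (-0.042) or 4 (-0.14), and no direction can be given there.

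SQSTM1 (chromosome 5, 179233398 to 179265078, plus strand), the ubiquitin-binding adaptor, stood at 348, 218, 214 and 239.6 CPM in normoxic PC3 replicates 1 to 4 and at 408, 296, 291 and 359.8 CPM in hypoxia. Each hypoxic PC3 library was above its normoxic partner, but normoxic replicate 1 lay among the hypoxic values. In HCT116 the normoxic libraries held 332, 336 and 321 CPM and the hypoxic ones 312, 335 and 328 CPM, which overlapped. The log2 fold change was 0.42 ± 0.18 in PC3 (adjusted p = 0.17) and -0.0043 ± 0.06 in HCT116 (adjusted p = 0.969). In PC3 it passed with the replicate block (0.43, adjusted p = 0.00464), without both libraries of replicate 1 (0.50, adjusted p = 0.0182) and without normoxia replicate 1 (0.62, adjusted p = 0.0225). C5orf45 overlaps SQSTM1 on the opposite strand over 1582 exon bases, and its own counts were at most 1.47% of those of SQSTM1. These counts set no limit on the effect of the overlap, since the use of strand in counting is not stated. Without strand, reads of the shared bases may be left out of both genes, and the level of SQSTM1 may then be too low.

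The second comparison asked whether the hypoxic change differed between the lines. It did for BNIP3 and BNIP3L, both with the smaller rise in PC3, and, without the replicate block, for none of the other 7 genes tested. Of all 15493 genes, 2.32% passed this interaction test (1.01% higher and 1.31% lower in PC3). The log2 fold change of BNIP3 was lower in PC3 by 1.50 ± 0.17 (difference of log2 fold changes -1.50, adjusted p = 0.000142), and that of BNIP3L differed by -2.29 ± 0.15 (adjusted p = 1.3e-06). For PINK1 the difference was -0.08 ± 0.14 (adjusted p = 0.864), for FKBP8 it was -0.19 ± 0.14 (adjusted p = 0.563), and these errors leave room for differences of either sign. The FKBP8 difference passed without PC3 hypoxia replicate 4 (-0.32, adjusted p = 0.0313). For SQSTM1 the difference was 0.43 ± 0.22 (adjusted p = 0.347), and it passed with the replicate block (0.45, adjusted p = 0.0151; 8.44% of all genes passed), without normoxia replicate 1 of PC3 (0.62, adjusted p = 0.0438) and without both PC3 libraries of replicate 1 (0.52, adjusted p = 0.0273; 3.28% of all genes passed). FUNDC1, ULK1, MAP1LC3B and GABARAPL1 had differences between -0.15 and 0.12, with standard errors from 0.14 to 0.70.

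**Figure D2:**
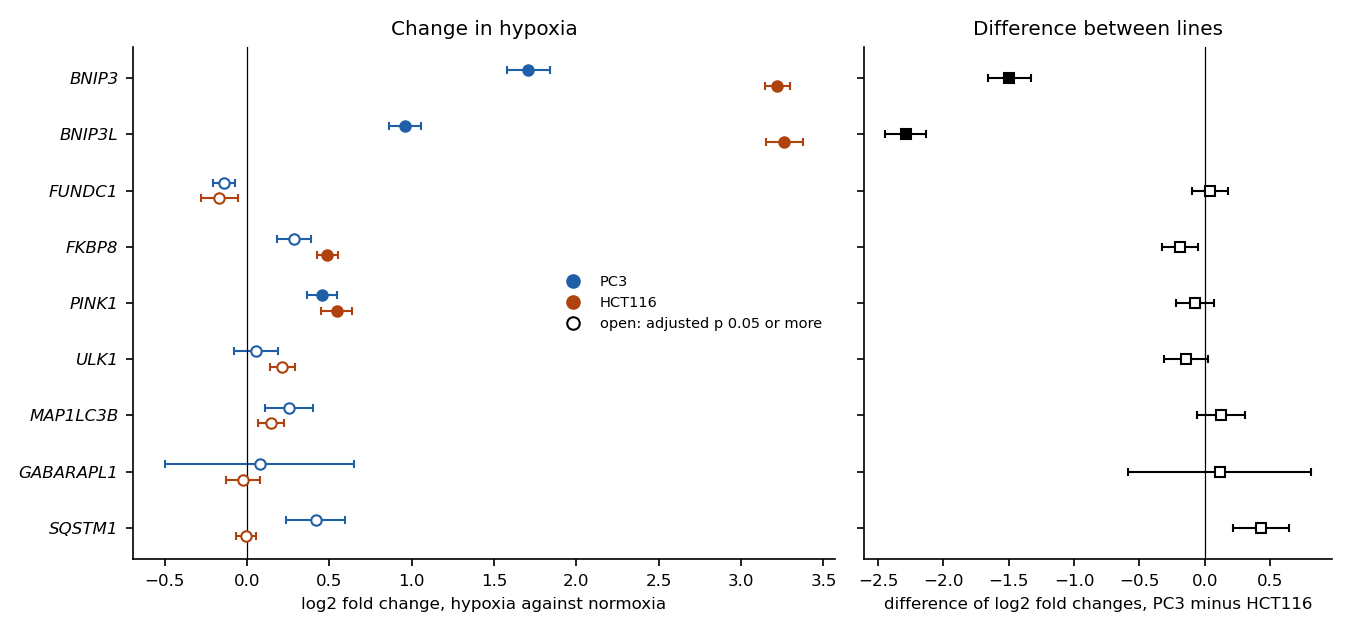
Left, log2 fold change in hypoxia against normoxia in PC3 (blue) and HCT116 (red) for the 9 genes tested. Right, the difference of these log2 fold changes, PC3 minus HCT116. Points are edgeR estimates, bars are standard errors and filled points passed the test. BNIP3 and BNIP3L lie at 1.71 and 0.96 in PC3 and at 3.22 and 3.26 in HCT116, and they are the only filled points on the right.

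The third comparison asked how the lines differed before hypoxia. BNIP3L, PINK1 and ULK1 were higher in normoxic PC3 than in normoxic HCT116 cells, and SQSTM1 was lower. These were 4 of the 9 genes, against 81.3% of the 15493 genes tested (42.4% higher and 38.9% lower in PC3), so that most genes of the table differed between the lines. The libraries of the lines did not overlap for BNIP3L, PINK1, ULK1 and FKBP8, which is 4 of 9 against 82.4% of all genes. BNIP3L was 3.87-fold higher in PC3 (log2 fold change 1.95 ± 0.11, adjusted p = 3.09e-10), PINK1 2.42-fold higher (1.27 ± 0.10, adjusted p = 1.81e-08) and ULK1 2.32-fold higher (1.21 ± 0.12, adjusted p = 2.14e-07). BNIP3, in contrast, stood at a mean of 46.1 ± 4.28 CPM (SD, n = 4) in PC3 and 42.1 ± 0.192 CPM (n = 3) in HCT116, a log2 difference of 0.13 ± 0.12 that did not pass (adjusted p = 0.31).

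SQSTM1 was lower in PC3 by 0.37 ± 0.15 (log2 fold change -0.37, adjusted p = 0.0335), although the libraries of the lines overlapped, with PC3 replicate 1 above every normoxic HCT116 library. This call was lost with total-count scaling (adjusted p = 0.0907) and when any one of PC3 normoxia replicates 2, 3 and 4 or any one of the 3 normoxic HCT116 libraries was left out (adjusted p from 0.055 to 0.0998). It was kept, with a larger difference, without both PC3 libraries of replicate 1 (-0.56, adjusted p = 1.87e-05) and without normoxia replicate 1 alone (-0.56, adjusted p = 0.000275). MAP1LC3B did not pass (-0.23 ± 0.13, adjusted p = 0.11), but did without normoxia replicate 1 of PC3 (-0.38, adjusted p = 0.00358). It also passed without both PC3 libraries of replicate 1 (-0.38, adjusted p = 0.000693). FKBP8 did not pass either (-0.16 ± 0.10, adjusted p = 0.148), and did with upper-quartile scaling (-0.22, adjusted p = 0.0447), with the normoxic libraries alone (-0.18, adjusted p = 0.0119) and without PC3 hypoxia replicate 4 (-0.17, adjusted p = 0.00593). GABARAPL1 differed by 0.07 ± 0.49 (adjusted p = 0.897) over all libraries and by -0.62 (adjusted p = 0.00185) without both PC3 libraries of replicate 1. Without normoxia replicate 1 of PC3 alone it also differed by -0.62, but did not pass (adjusted p = 0.162).

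In hypoxia the order of the lines was not the same for each gene. BNIP3 ranged from 363 to 412 CPM in hypoxic HCT116 and from 113 to 171 CPM in hypoxic PC3 cells. BNIP3L, which had been lower in normoxic HCT116, ranged from 292 to 377 CPM there in hypoxia and from 243 to 273 CPM in PC3. PINK1 remained higher in PC3, at 72.5 to 89.5 CPM against 29.9 to 40.0 CPM. No test was run between the hypoxic groups.

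To set the receptors beside PINK1, CPM was divided by the length in kb of the canonical transcript of each gene, and all levels in this and the next paragraph are on this scale. In normoxic PC3 cells BNIP3 stood at 29.9 ± 2.78, BNIP3L at 38.7 ± 4.73, FUNDC1 at 21.9 ± 0.813, FKBP8 at 89.1 ± 3.15 and PINK1 at 22.6 ± 1.83 (mean ± SD, n = 4). SQSTM1 (89.7 ± 22.3) and FKBP8 were the most abundant of the 9 and overlapped, as did PINK1 and FUNDC1, while ULK1 had the lowest mean, 6.34 ± 1.09, and overlapped with GABARAPL1 (10.2 ± 7.86). In hypoxic PC3 cells the ranges of SQSTM1, FKBP8 and BNIP3 overlapped at the top, with BNIP3 at 97.7 ± 16.8. BNIP3L, at 75.0 ± 3.63, overlapped with BNIP3 and was above it in replicate 1. In normoxic HCT116 cells SQSTM1 (116 ± 2.74) and FKBP8 (99.4 ± 1.53) led without overlap, BNIP3 (27.3 ± 0.125) overlapped with FUNDC1 (24.3 ± 4.51), and BNIP3L (9.99 ± 1.09), GABARAPL1 (9.72 ± 1.25) and PINK1 (9.35 ± 0.349) lay close together. In hypoxic HCT116 cells BNIP3 was the most abundant of the 9 at 251.8 ± 16.0, above FKBP8 (138 ± 7.52), SQSTM1 (114 ± 4.11) and BNIP3L (94.7 ± 12.95), whose library ranges did not overlap, and PINK1 stood at 13.5 ± 1.98. BNIP3 ranked first in hypoxic HCT116 cells also when the length of all exons was used, which moved its rank from the fifth to the seventh in normoxic PC3 cells. With that length the mean of FKBP8 was above that of SQSTM1 in every group (62.1 against 43.8 in normoxic HCT116 cells). BNIP3L was above BNIP3 in hypoxic PC3 cells (62.4 against 37.2) and above SQSTM1 in hypoxic HCT116 cells (78.8 against 43.2). In normoxic PC3 cells BNIP3 was below PINK1 (11.4 against 12.4). Most of the order of these genes within a group thus depends on the length used.

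Summed over BNIP3, BNIP3L, FUNDC1 and FKBP8, the 4 receptors stood at 179.7 ± 7.07 in normoxic and 301 ± 33.3 in hypoxic PC3 cells, and at 161 ± 3.47 and 506 ± 31.7 in HCT116. BNIP3 and BNIP3L together made up 38.1% ± 2.54 of that sum in normoxic and 57.5% ± 2.70 in hypoxic PC3 cells, and 23.2% ± 0.984 and 68.5% ± 1.73 in HCT116. FKBP8, the largest share in normoxia in both lines, went from 49.6% to 35.9% in PC3 and from 61.8% to 27.3% in HCT116. The ratio of BNIP3 to PINK1 was 1.29, 1.45, 1.50 and 1.09 in normoxic PC3 replicates 1 to 4 and 2.19, 3.58, 3.63 and 3.39 in hypoxia. In HCT116 it was 3.06, 2.81 and 2.91 in normoxia and 22.5, 17.7 and 16.6 in hypoxia. The ratio of BNIP3L to PINK1 was 1.72 ± 0.186 in normoxic and 2.43 ± 0.140 in hypoxic PC3 cells, and 1.07 ± 0.0821 and 7.09 ± 1.03 in HCT116. Both ratios were higher in every hypoxic library than in every normoxic one of the same line. The ratios to PINK1 need no scaling between libraries, and the transcript length chosen sets their level but not their fold change in hypoxia. For the sum and the shares of the 4 receptors, the length chosen affects both the level and the change. The ratios, the sum and the shares describe the genes chosen and were not tested.

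**Figure D3:**
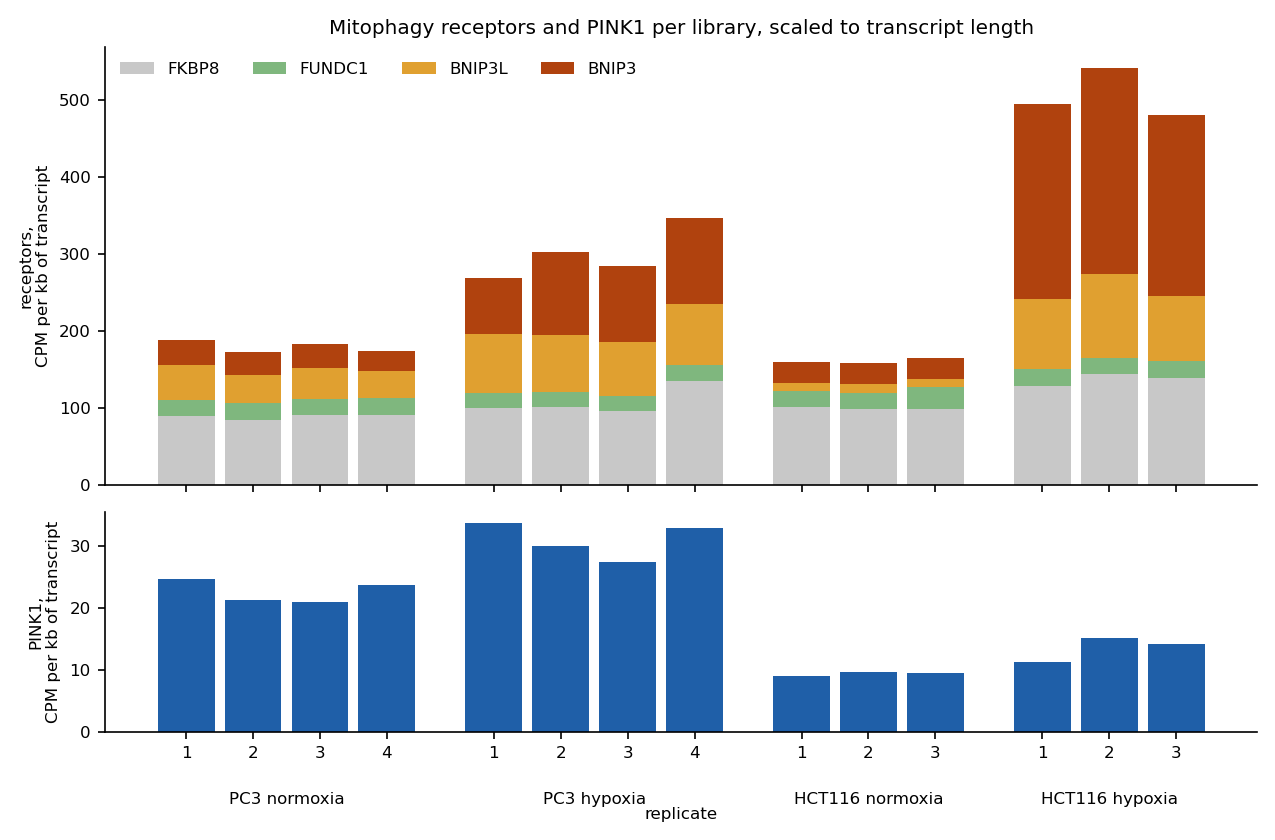
Levels in each of the 14 libraries in CPM per kb of canonical transcript, both axes linear from 0. Top, BNIP3, BNIP3L, FUNDC1 and FKBP8 stacked. Bottom, PINK1 on its own axis. The stack goes from a mean of 179.7 to 301 in PC3 and from 161 to 506 in HCT116, mostly through BNIP3 and BNIP3L, while PINK1 is lower in all HCT116 libraries than in all PC3 libraries.

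A further 79 genes of the pathway, in 9 roles, were looked at beside these 9, and their changes were small. In PC3, 5 were higher and 2 lower of the 77 that were tested (9.09%, against 11.3% of all genes), and in HCT116 10 were higher and 8 lower of 77 (23.4%, against 25.9%). The log2 fold changes ran from -0.43 to 0.59 in PC3 and from -0.38 to 0.42 in HCT116, with medians of 0.09 and 0.04. The largest, that of ATG16L1 in PC3, was smaller than the 0.96 of BNIP3L in the same line. With the replicate block 19 of 77 passed in PC3, against 28.5% of all genes, with 13 higher and 6 lower. Without both libraries of replicate 1, 8 of 77 passed (10.4%, against 12.5% of all genes), with 5 higher and 3 lower. The counts by role that follow stand beside 11.3% of all genes in PC3 and 25.9% in HCT116, and no role was tested as a set.

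Among other mitophagy receptors 0 of 6 passed in PC3 and 1 of 6 in HCT116. That gene was NLRX1, a mitochondrial member of the NOD-like receptor family, at 0.27 ± 0.07 (adjusted p = 0.0198) in HCT116 and -0.25 ± 0.08 (adjusted p = 0.0691) in PC3, and its change differed between the lines (-0.51 ± 0.11, adjusted p = 0.0253). Of 9 regulators of the receptors, 2 rose in PC3 and 0 passed in HCT116. They were SRC, a kinase known to phosphorylate FUNDC1 (0.34 ± 0.06, adjusted p = 0.00666), and BCL2L1, an anti-apoptotic relative of BCL2 that can bind BNIP3 (0.39 ± 0.09, adjusted p = 0.0201).

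Of 18 regulators and substrates of the PINK1 route, 2 fell in PC3 (11.1%, against 11.3% of all genes). In HCT116 2 rose and 5 fell (38.9%, against 25.9% of all genes). The genes named for hypoxia are those with the largest changes, and the 2 that rose in HCT116, at most by 0.3, are not among them. USP30, a deubiquitinase of the outer mitochondrial membrane, fell in PC3 (-0.43 ± 0.10, adjusted p = 0.0269). MFN1, a mitofusin of the outer membrane, fell in both lines (-0.22 ± 0.06, adjusted p = 0.0448 in PC3, and -0.34 ± 0.07, adjusted p = 0.00613 in HCT116). USP15, another deubiquitinase, fell in HCT116 (-0.38 ± 0.07, adjusted p = 0.0034). Without the block MARCH5 alone of these 18, a ubiquitin ligase of the outer membrane that was picked out after its values were seen, differed between the lines (0.40 ± 0.10, adjusted p = 0.042), and with NLRX1 it made up the 2 of 78 that did (2.56%, against 2.32% of all genes). With the replicate block 5 of 78 passed this test, 3 higher and 2 lower in PC3 (6.41%, against 8.44% of all genes).

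Of the machinery common to both routes, ULK2 (0.35 ± 0.08, adjusted p = 0.00897) and ATG13 (0.30 ± 0.07, adjusted p = 0.00757) rose in HCT116 among the 4 further genes of the ULK complex, and none passed in PC3. PIK3C3, the lipid kinase VPS34, rose in HCT116 (0.42 ± 0.07, adjusted p = 0.00223) as 1 of 6 genes of its complex. Of 15 genes of ATG8 conjugation and membrane supply, 2 rose in PC3, and in HCT116 2 rose and 3 fell. ATG9A, a membrane protein that supplies the autophagosome, rose in both lines (0.43 ± 0.08, adjusted p = 0.01 in PC3, and 0.29 ± 0.07, adjusted p = 0.00838 in HCT116). ATG16L1, part of the enzyme that attaches ATG8 to lipid, rose in PC3 (0.59 ± 0.12, adjusted p = 0.0169), and ATG4C, a protease of ATG8 proteins, fell in HCT116 (-0.35 ± 0.07, adjusted p = 0.00455). Of 10 lysosomal genes and their regulators, the protease CTSB rose in both lines (0.36 ± 0.09, adjusted p = 0.0398, and 0.31 ± 0.07, adjusted p = 0.00724) and CTSD rose in HCT116 (0.21 ± 0.06, adjusted p = 0.0304). None of 6 other cargo adaptors and none of the 3 tested of 5 other ATG8 proteins passed in either line.

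**Figure D4:**
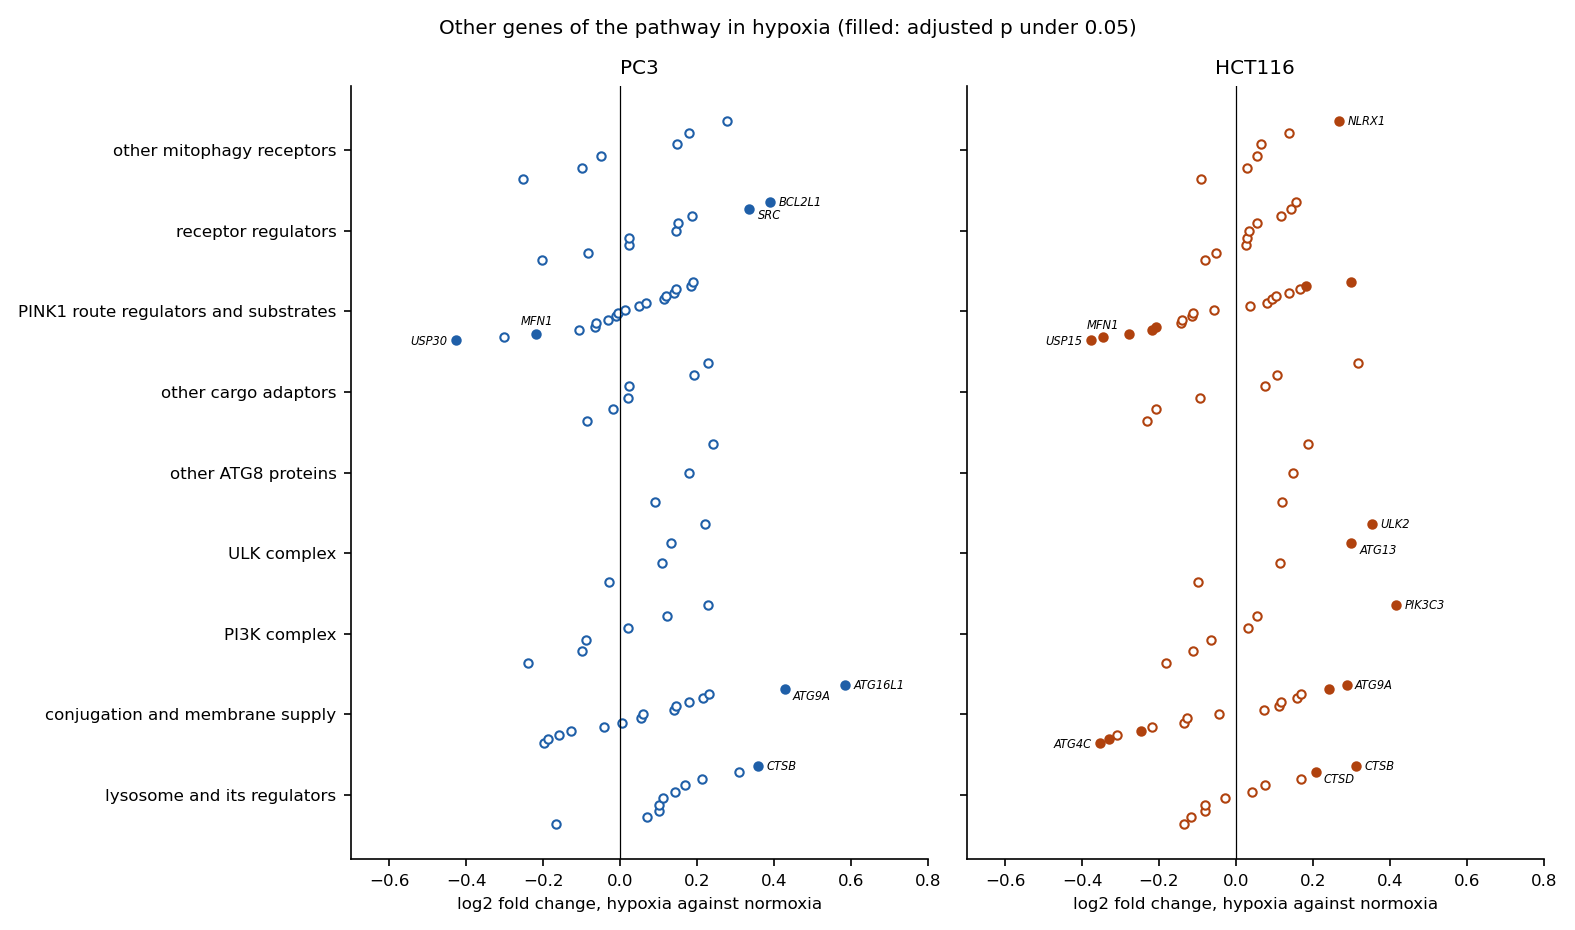
Log2 fold change in hypoxia of the 77 further pathway genes tested in PC3 (left) and in HCT116 (right), by role, with a point for each gene. Filled points passed the edgeR test, and the named ones are those of the text. Changes run from -0.43 to 0.59 in PC3 and from -0.38 to 0.42 in HCT116, with 7 and 18 filled points.

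The genes whose pattern was most like that of BNIP3 over the 14 libraries, by Pearson correlation of log2 CPM among 12638 genes, were ANKRD37 (r = 0.993), ALDOA (0.98), PKM (0.98), FAM162A (0.977) and PPP1R3B (0.976). ALDOA and PKM are glycolytic enzymes. Among the mitophagy genes the correlation with BNIP3 was 0.853 for FKBP8, 0.803 for BNIP3L and 0.108 for PINK1. MAP1LC3B and SQSTM1 went together at 0.934, and PINK1 and ULK1 at 0.951. The 14 libraries fall into 4 groups of line and condition, and they share the library and its depth between genes, so that these values are descriptions with no test.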

How the data were processed

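Polyadenylated RNA of PC3 (4 libraries per condition) and HCT116 (3 per condition) was sequenced, and groups were taken from the sample labels. The authors aligned reads with HISAT2 (version 2.05) to GRCh37 and counted them on RefSeq genes with HTSeq (version 0.5.4p3, intersection-strict), and they deposited the raw count of each of 23106 symbols per library. Strandedness and the RefSeq release are not given in the sources used here. Each library was taken as 1 replicate, since the paper describes them as biological replicates. No 2 replicates agreed within sampling noise, but that cannot show that they are independent.

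Counts were tested with edgeR (version 4.0.16, R 4.3.3): filterByExpr, TMM scaling, quasi-likelihood F test, two-sided, Benjamini-Hochberg adjustment over all genes tested and a threshold of 0.05. The lines were fitted apart for hypoxia, and together over 14 libraries for the interaction and for the lines in normoxia. SEs are the size of the unshrunk log2 fold change over the root of the F statistic. Lengths and positions are from GENCODE's GRCh37 annotation, promoters from RefSeq. The tests were checked on simulated counts with known changes. The simulation held no line difference beyond the planted changes, no replicate pairing and no library that stood apart, so that it does not cover these features.

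The PC3 numbers pair the libraries: deviations from the condition means of same-numbered libraries correlated at 0.672, 0.265, 0.138 and 0.28 over 14309 genes. Differently numbered PC3 libraries correlated at -0.417 to 0.195, so that the pairing was weak outside replicate 1. The main tests did not use the pairing. The alternatives were other scalings, DESeq2 (version 1.42.0), no filter, at least 10 counts in every library, 1 fit over all libraries, the normoxic libraries alone, the replicate block, a log2 change of at least 1 and each library left out. Leaving out both PC3 libraries of replicate 1 was chosen after seeing the data.

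The 10 genes, the lists and the tests were chosen with earlier results of these data known. One gene of the list of 10 and 1 marker are not reported here. The other 9 genes are all named, with up to 3 further pathway genes per role, those that passed in either line with the largest change, and the 5 genes most like BNIP3 (mean of at least 1 CPM, prior count 2). ERCC reads and the other experiments of the study are not analysed here.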

Additional observations from a re-analysis of the deposited data

Results flagged for a closer look

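In groups of 4 libraries, a library was picked out where its gap to the nearest other, as a share of the group's range, was above 0.829, and 5 of 18 groups met this, where chance would give about 0.9 (1 in 20) if the groups were independent. They are not, since all the genes share the same PC3 libraries, so that the 5 cannot be weighed against the 0.9. GABARAPL1 accounts for both of the high libraries of PC3 replicate 1, at 41.28 CPM in normoxia against 10.04 to 14.4 CPM in the others, and at 43.52 CPM in hypoxia against 9.906 to 14.77 CPM. FKBP8 was low in normoxic PC3 replicate 2 (148.7 CPM, others 159.0 to 160.2 CPM) and high in hypoxic PC3 replicate 4 (237.9 CPM, others 170.9 to 178.1 CPM). BNIP3 was low in normoxic PC3 replicate 4 (39.77 CPM, others 47.62 to 48.87 CPM). The groups of HCT116 had 3 libraries and were not examined in this way.

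The hypoxic change differed between the lines for BNIP3, by -1.497 on the log2 scale (PC3 minus HCT116, edgeR adjusted p = 0.000142), and for BNIP3L, by -2.29 (adjusted p = 1.3e-06). Both were higher in every hypoxic library than in every normoxic one of the same line.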

How the results depend on the processing

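The calls of BNIP3 and BNIP3L in hypoxia and between the lines kept their direction and their side of the threshold with each library left out and under every scaling, filter, DESeq2 and the block, except that a log2 change of at least 1 removed BNIP3L in PC3 (0.96). Mitophagy genes called in PC3 numbered 6 with the replicate block, 5 without both libraries of replicate 1 and 1 at a log2 change of at least 1, and in HCT116 2 at that size. Leaving out single libraries gave 2 to 5 called in PC3, 4 to 5 in HCT116, 2 to 3 for the difference between the lines and 3 to 5 for the lines in normoxia. Over all genes PC3 had 2568 called with DESeq2, 4074 with the block, 2465 in 1 fit over 14 libraries, 204 at a log2 change of at least 1 and 553 to 2085 with a library left out. HCT116 had 1733 in 1 fit, 291 at that size and 2560 to 3339 with a library left out, the difference between the lines 970 with DESeq2, 1307 with the block, 107 at that size and 177 to 717, and the lines in normoxia 6941 at that size and 12152 to 12924. Total-count scaling moved the balance of calls in PC3 from 863 up and 757 down to 562 and 1733, and in HCT116 from 2061 and 1597 to 1286 and 3146. Upper-quartile scaling gave 681 up and 1048 down in PC3, and for the difference between the lines 115 and 278 (156 and 203 with TMM). The sign turned for ULK1 (-0.049) and GABARAPL1 (-0.017) in PC3 under total-count scaling, for FUNDC1 in the difference between the lines (-0.0064) under upper-quartile scaling, and for GABARAPL1 between the lines in normoxia (-0.62) without both PC3 libraries of replicate 1. With single libraries left out the log2 values of genes that did not pass ran through 0 for GABARAPL1 (-0.64 to 0.79 in PC3, -0.11 to 0.073 in HCT116, -0.59 to 0.81 for the difference, -0.62 to 0.29 in normoxia), ULK1 in PC3 (-0.037 to 0.19), SQSTM1 in HCT116 (-0.030 to 0.017), PINK1 for the difference (-0.18 to 0.016) and FUNDC1 (-0.12 to 0.12 for the difference, -0.23 to 0.013 in normoxia). The cause of these changes was not tested.

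In HCT116, same-number libraries correlated at 0.0913, 0.141 and 0.041, above the differently numbered ones (-0.0961 to 0.00401). The numbers may thus pair the HCT116 libraries too, though weakly. The normoxic libraries of the 2 lines share only a number (-0.0345, -0.00786 and 0.0104, with -0.0541 to 0.0428 for different numbers). For these comparisons the block gave 4 mitophagy genes called in HCT116 (3754 over all genes) and 5 in normoxia (12739), the fifth being FKBP8 (-0.22, adjusted p = 0.028). In the difference between the lines the block gave 3, with SQSTM1 added, and it changed no other call of these genes than those given.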
